A study of Mus musculus with 6 samples.

Results

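Dermal fibroblasts of newborn mice, treated with 20(OH)Cholesterol, were compared between 2 genotypes in this RNA sequencing experiment. The cells were RORγ-/- (knockout) and RORγ+/+ (wild type) as the labels give them, from the dermis of animals 1 to 2 days old. The study holds 6 libraries, 1 for each of these genotypes with 20(OH)Cholesterol, 20(OH)L3 or 20(OH)7DHC, each sterol at 100 nM for 24 h. All 6 groups share 0.1% ethanol as the solvent, medium with 10% charcoal-stripped serum, early passage and the pooling of cells of different mice, so a library is a pool and not an animal. The genotype is that of the whole animal, the deleted stretch of the gene is not given in the sources used here, and no library of ethanol alone was analysed here. A check of the genotype labels in these values went against them with all 3 sterols, at low FPKM, and the values do not tell whether the labels or the check are at fault, so each ratio below is between genotypes as labelled. The comparison had 1 library a side, so it has no replicate check, and every value below describes these libraries without a test.

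Values are FPKM, fragments scaled by transcript length and library size. A ratio is log2 of (FPKM + 1) in the knockout-labelled library over (FPKM + 1) in wild type with the same sterol, and 1 on this scale is a 2-fold difference of FPKM + 1. The comparison took 8919 of the 46958 rows of the table, those with a single gene symbol and at least 5 FPKM in either 20(OH)Cholesterol library. Among them were 7967 protein-coding genes with transcripts of at least 300 nt, called coding genes below. The estimated depth under 20(OH)Cholesterol was 7700000 fragments in the knockout-labelled library and 13100000 in wild type, so 5 FPKM on a transcript of 1 kb stood for about 30.8 and 52.5 fragments.

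RORγ is a nuclear receptor, a transcription factor that binds DNA response elements and takes sterols as ligands, and it is best known for its part in T helper 17 cells and in the circadian clock. 20-Hydroxycholesterol is an oxysterol, cholesterol with an added hydroxyl on the side chain. Oxysterols as a class are known to activate liver X receptors, to hold back the SREBP factors that drive cholesterol synthesis, and, for some side-chain forms, to activate Smoothened in the Hedgehog pathway. 20(OH)L3 and 20(OH)7DHC carry the hydroxyl at the same carbon on lumisterol and on 7-dehydrocholesterol, which differ from cholesterol in their rings.

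The labelled cell type was compared with its markers first. Of 10 fibroblast markers, 7 had a row of their own, and their summed level was 5879 FPKM in the knockout-labelled library and 7130 FPKM in wild type. None of the 7 was higher past 2-fold and 5 were lower, where 15% of coding genes were higher and 14.4% lower. Among the lower was Col1a1, a chain of type I collagen, with 548 FPKM in the knockout-labelled library and 1459 FPKM in wild type. Endothelial markers summed to 1.94 FPKM against 1.96 FPKM, melanocyte markers to 0.134 FPKM against 1.64 FPKM, Schwann cell markers to 5.38 FPKM against 9.11 FPKM and erythroid markers to 0.352 FPKM against 0.625 FPKM. Macrophage and leukocyte markers summed to 16.1 FPKM in the knockout-labelled library and 12.2 FPKM in wild type. Of these markers 2 reached 5 FPKM in either library, 1 of them higher past 2-fold and none lower, too few to set against the shares of coding genes. Ptprc and Adgre1, defining genes of leukocytes and macrophages, were listed at 0 in both libraries. Mural cell markers summed to 54.3 FPKM against 21.3 FPKM. In bulk RNA, fewer cells of a type and less RNA per cell cannot be told apart.

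In outline, interferon-induced antiviral genes, acute-phase proteins, many chemokines, matrix proteoglycans and cell cycle genes were lower in the knockout-labelled library, and contractile proteins, ribosomal proteins, respiratory chain subunits and a set of epidermal transcripts were higher. Of the 8919 rows, 1488 were higher past 2-fold, 16.7% of them, and 1362 were lower, 15.3%. Of the coding genes, 1198 were higher, 15%, and 1145 were lower, 14.4%. The counts of gene lists below are to be set against these shares of coding genes. Past 4-fold the balance turned, with 315 rows higher, 3.53%, and 484 lower, 5.43%. The median ratio over coding genes was 0.06, so the ratios were centred close to 0.

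**Figure D1:**
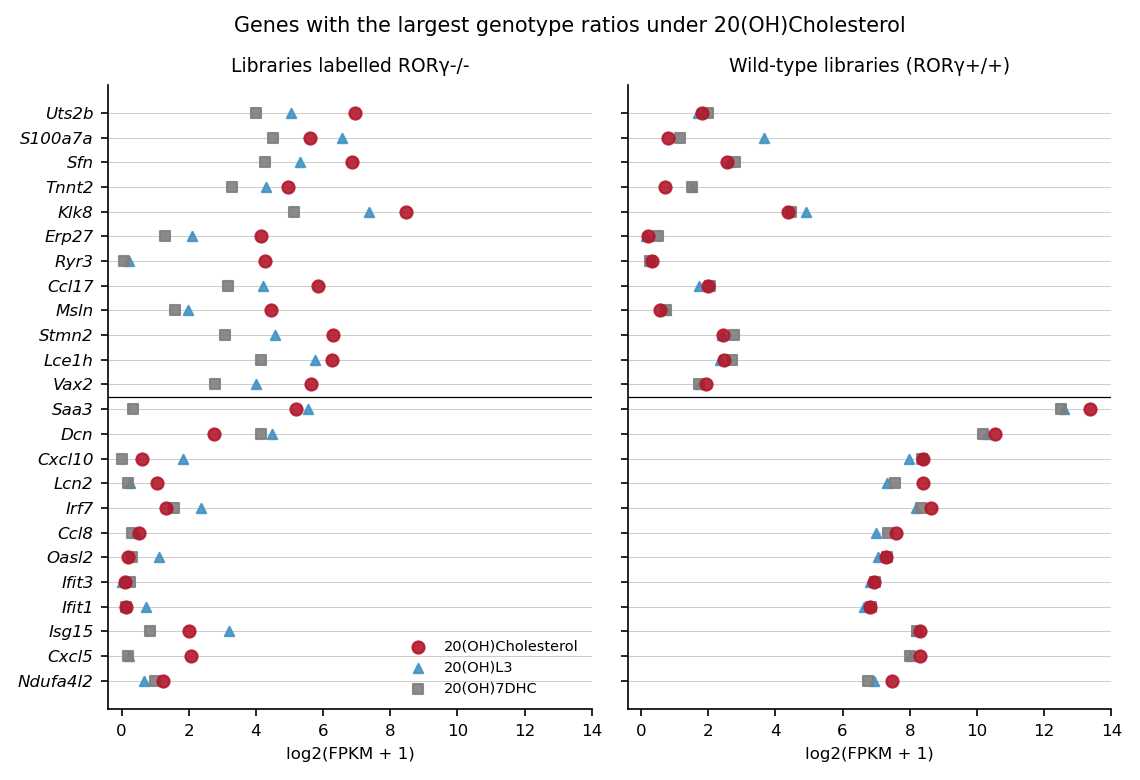
Level of the 12 coding genes with the highest and the 12 with the lowest ratio under 20(OH)Cholesterol, as log2(FPKM + 1), in the libraries labelled RORγ-/- (left) and in wild type (right), with 1 point for each sterol. The 20(OH)Cholesterol points of the upper genes lie to the right of the other sterols for 11 of 12 genes in the left panel. The genes were chosen by their 20(OH)Cholesterol values, so this position is favoured by the choice. The wild-type points of most genes lie close together.

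Among coding genes above 0 in both libraries, the highest ratio belonged to Uts2b, the precursor of a urotensin II-related vasoactive peptide, with 123 FPKM in the knockout-labelled library and 2.53 FPKM in wild type (ratio 5.14). Its ratio was smaller with the other sterols, 3.35 with 20(OH)L3 and 2.01 with 20(OH)7DHC. Ccl17, a chemokine that attracts T cells through CCR4, had 57.2 FPKM in the knockout-labelled library and 2.94 FPKM in wild type (ratio 3.88). Stmn2, a microtubule-destabilizing protein known from neurons, had 77.9 FPKM in the knockout-labelled library and 4.46 FPKM in wild type. Vax2, a homeobox factor of the ventral eye, had 48.8 FPKM in the knockout-labelled library and 2.79 FPKM in wild type. Across the 12 genes the wild-type level under 20(OH)Cholesterol ran between 0.141 FPKM for Erp27, a protein of the endoplasmic reticulum, and 19.7 FPKM for Klk8, a serine protease of the skin. These genes were thus low in wild type and moderate in the knockout-labelled library, where Klk8 had the highest level, 354 FPKM.

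Several of the 12 are genes of the epidermis. Sfn, the 14-3-3 sigma protein of keratinocytes, had 116 FPKM in the knockout-labelled library and 4.92 FPKM in wild type, and Lce1h, a late cornified envelope protein, had 75.8 FPKM in the knockout-labelled library and 4.55 FPKM in wild type. S100a7a, the mouse psoriasin, had 47.4 FPKM in the knockout-labelled library and 0.731 FPKM in wild type. The whole list of 18 cornified envelope and related genes, 17 of them with a row of their own, summed to 248 FPKM in the knockout-labelled library and 25.7 FPKM in wild type, and 6 of the 17 reached the minimum. Most of these 6 reached it in the knockout-labelled library alone, and over all 17 the median ratio was 0.19. The keratinocyte list, 14 of 15 genes with a row, summed to 149 FPKM against 19.8 FPKM, of which Sfn held 116 and 4.92 FPKM. Of its genes 4 reached the minimum, with a median ratio of 2.02, 2 of them higher past 2-fold and none lower. Its median ratio over the 14 was 0.03. Its defining keratins were low, with 0.130 FPKM in the knockout-labelled library and 0.115 FPKM in wild type for Krt5, and 3.75 FPKM in the knockout-labelled library and 0.0829 FPKM in wild type for Krt14, both of the basal layer. Krt1, a keratin of the upper layers, was listed at 0 against 0.0340 FPKM, and Trp63, the master regulator of stratified epithelium, was listed at 0 in both. With 20(OH)L3 the cornified envelope list summed to 281 FPKM against 36.1 FPKM, and with 20(OH)7DHC to 84.3 FPKM against 31.2 FPKM. The difference was therefore present with all 3 sterols, and the part that epidermal cells take in it was not tested. Tnnt2, cardiac troponin T, had 30.0 FPKM in the knockout-labelled library and 0.624 FPKM in wild type and made up most of a skeletal muscle list that summed to 34.8 FPKM against 2.96 FPKM, while Myod1 and Myog, which define muscle cells, were listed at 0 in both libraries.

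The lower side was led by secreted innate proteins and interferon-induced genes. Saa3, an acute-phase serum amyloid, had 35.6 FPKM in the knockout-labelled library and 10480 FPKM in wild type (ratio -8.16). Lcn2, an iron-sequestering lipocalin, had 1.08 FPKM in the knockout-labelled library and 332 FPKM in wild type, and Cxcl5, a neutrophil-attracting chemokine, had 3.19 FPKM in the knockout-labelled library and 316 FPKM in wild type. All 7 acute-phase and innate secreted proteins were lower past 2-fold, with a median ratio of -5.30, among them C3, the central complement component, with 4.65 FPKM in the knockout-labelled library and 374 FPKM in wild type. Dcn, decorin, a collagen-binding proteoglycan of the dermis, stood second with 5.74 FPKM in the knockout-labelled library and 1489 FPKM in wild type (ratio -7.79). Ndufa4l2, a mitochondrial protein that rises with hypoxia, had 1.36 FPKM in the knockout-labelled library and 175 FPKM in wild type. The 12 lowest genes started at 112 FPKM in wild type, the level of Ifit1, and none of the 12 was above 35.6 FPKM in the knockout-labelled library.

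Interferon binds receptors that signal through JAK kinases to STAT and IRF factors, and these switch on antiviral genes. Of 21 antiviral effectors in the comparison, all 21 were lower past 2-fold, with a median ratio of -4.20, against a median of 0.06 over coding genes. The same medians with 20(OH)L3 and 20(OH)7DHC were -3.81 and -4.18. Ifit3, which blocks translation of viral RNA with its relatives, had 0.0834 FPKM in the knockout-labelled library and 120.4 FPKM in wild type, and Isg15, a ubiquitin-like modifier, had 3.03 FPKM in the knockout-labelled library and 315 FPKM in wild type. Bst2, tetherin, which holds budding virus at the membrane, had 43.0 FPKM in the knockout-labelled library and 1175 FPKM in wild type. Ifi44, an interferon-induced protein, and Zbp1, a sensor of Z-form nucleic acid, were listed at 0 in the knockout-labelled library, against 97.7 and 43.7 FPKM in wild type.

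Of 6 interferon receptors and JAK kinases in the comparison 1 was lower past 2-fold, near the 14.4% of coding genes, and none was higher. Ifngr1, a chain of the interferon gamma receptor, had 46.1 FPKM in the knockout-labelled library and 46.1 FPKM in wild type, and Ifnar1, of the type I receptor, had 9.37 FPKM in the knockout-labelled library and 16.9 FPKM in wild type (ratio -0.79). Jak2, a receptor kinase and the 1 past 2-fold, had 4.72 FPKM in the knockout-labelled library and 11.9 FPKM in wild type (ratio -1.18). Among the factors Stat2 had 2.09 FPKM in the knockout-labelled library and 54.9 FPKM in wild type, and Irf7, the amplifier of type I interferon, had 1.52 FPKM in the knockout-labelled library and 392 FPKM in wild type. Irf3 went the other way, with 172 FPKM in the knockout-labelled library and 71.3 FPKM in wild type (ratio 1.26). In all, 7 of 13 signalling genes were lower past 2-fold and 1 was higher. Of 12 antigen presentation genes 8 were lower and none higher, such as the immunoproteasome subunit Psmb9 with 1.13 FPKM in the knockout-labelled library and 53.5 FPKM in wild type.

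Matrix genes of the dermis were lower as a group, with exceptions. Of 15 collagen genes 9 were lower past 2-fold and none was higher. Their transcripts are long, with a median of 6119 nt, and ratios fell with transcript length, as described below. Of coding genes of 6 kb and over, 19.1% were lower past 2-fold. The collagen median was -1.23, and -0.84 with the length trend taken out. Col1a2 had 182 FPKM in the knockout-labelled library and 1062 FPKM in wild type and Col6a2, a chain of the microfibrillar collagen VI, had 1.69 FPKM in the knockout-labelled library and 34.8 FPKM in wild type, while Col4a1 of the basement membrane had 383 FPKM in the knockout-labelled library and 269 FPKM in wild type (ratio 0.51). Of 22 matrix proteoglycans and glycoproteins 15 were lower. Mfap4, a microfibril-associated glycoprotein, had 6.87 FPKM in the knockout-labelled library and 270.0 FPKM in wild type, whereas Fn1, fibronectin, had 936 FPKM in the knockout-labelled library and 961 FPKM in wild type (ratio -0.04). Of 11 crosslinking and collagen-processing genes 5 were lower, and Plod2, a lysyl hydroxylase, had 20.5 FPKM in the knockout-labelled library and 127 FPKM in wild type. Matrix proteases and their inhibitors were mixed, with 7 of 19 lower and 2 higher, where 14.4% of coding genes were lower and 15% higher. Mmp3, stromelysin, had 2.10 FPKM in the knockout-labelled library and 94.4 FPKM in wild type, and Plaur, the urokinase receptor, had 148 FPKM in the knockout-labelled library and 36.3 FPKM in wild type.

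Contractile proteins were higher. Of 20 such genes 12 were higher past 2-fold and none was lower, with a median ratio of 1.20. Acta2, smooth muscle actin and the classical myofibroblast marker, had 9075 FPKM in the knockout-labelled library and 2206 FPKM in wild type (ratio 2.04). Tpm2, a tropomyosin, had 2486 FPKM in the knockout-labelled library and 288 FPKM in wild type, and Cald1, caldesmon, which binds actin and calmodulin, had 4601 FPKM in the knockout-labelled library and 578 FPKM in wild type. Tagln, an actin-binding protein of smooth muscle, had 5240.5 FPKM in the knockout-labelled library and 1174 FPKM in wild type. The non-muscle heavy chain Myh9 had 228 FPKM in the knockout-labelled library and 237 FPKM in wild type and Myh10 had 23.8 FPKM in the knockout-labelled library and 40.3 FPKM in wild type, so these non-muscle myosin heavy chains did not share the difference.

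Cell cycle genes were lower. Of 20 genes of mitosis 17 were lower past 2-fold, with a median ratio of -1.55, for example Cdk1, the kinase that starts mitosis, with 22.9 FPKM in the knockout-labelled library and 83.0 FPKM in wild type. Of 20 replication genes 14 were lower, such as Tk1, thymidine kinase, with 6.51 FPKM in the knockout-labelled library and 34.6 FPKM in wild type. Of 14 rows of recombination repair genes 8 reached the minimum, which a gene could do through wild type alone, and 7 of the 8 were lower. Their median ratio was -1.45, and -1.31 with a minimum of 1 FPKM. An example is Exo1, an exonuclease that resects DNA ends, with 3.12 FPKM in the knockout-labelled library and 9.85 FPKM in wild type. Of 18 immediate early factors 12 were lower, and Egr1 had 10.3 FPKM in the knockout-labelled library and 227 FPKM in wild type. None in these 4 lists was higher past 2-fold.

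Among clock genes 6 of 11 were lower and none higher past 2-fold. Nr1d1, the repressor REV-ERBα, had 11.1 FPKM in the knockout-labelled library and 28.2 FPKM in wild type (ratio -1.27), and Dbp, an output factor, had 3.64 FPKM in the knockout-labelled library and 13.5 FPKM in wild type. Arntl, the activator BMAL1 that REV-ERB represses, had 18.5 FPKM in the knockout-labelled library and 10.5 FPKM in wild type (ratio 0.76). Of 17 HOX genes 7 were higher and 3 lower. Hoxc8 had 83.7 FPKM in the knockout-labelled library and 20.4 FPKM in wild type and Hoxa11 had 1.49 FPKM in the knockout-labelled library and 15.2 FPKM in wild type. HOX genes mark the position along the body from which fibroblasts come. Eif2s3y, a Y-linked translation factor, was listed at 0 in the knockout-labelled library against 31.3 FPKM in wild type, and Ddx3y likewise against 9.49 FPKM, so a difference in the sex of the pooled mice cannot be told apart from genotype here.

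**Figure D2:**
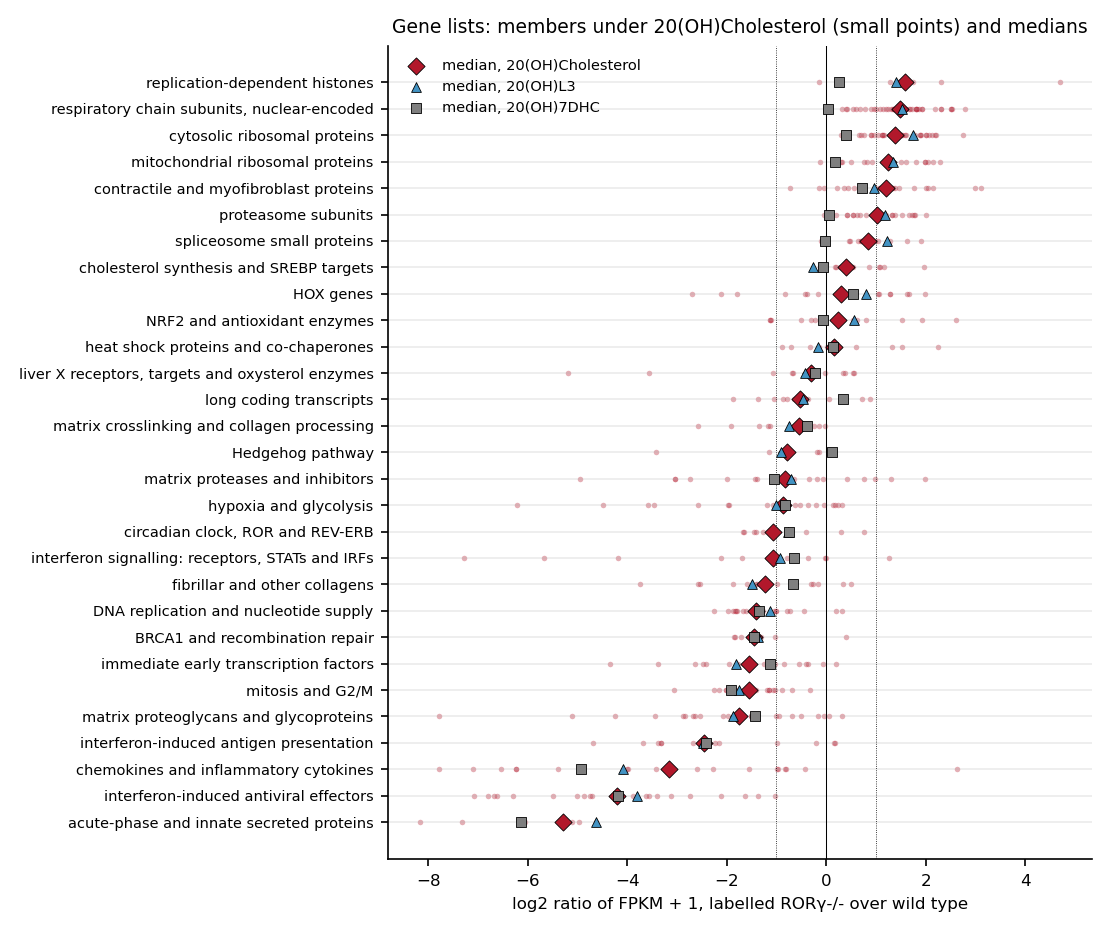
Ratios under 20(OH)Cholesterol of the members of 29 gene lists (small points), with the list median for each of the 3 sterols (diamond, triangle, square); the x axis is log2 of (FPKM + 1) in the library labelled RORγ-/- over wild type, and dotted lines mark 2-fold. The medians of the acute-phase, antiviral and chemokine lists lie furthest to the left, at -5.30, -4.20 and -3.16, and the median of the cholesterol synthesis list under 20(OH)Cholesterol, 0.41, lies to the right of both other sterols.

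Short transcripts were raised. Among coding genes of 300 nt to 1 kb, 256 of 454 were higher past 2-fold, 56.4%, and 26 were lower, 5.73%, with a median ratio of 1.16 and quartiles of 0.61 and 1.62. Among 850 coding genes of 6 kb and over, 56 were higher, 6.59%, and 162 were lower, with a median of -0.39. From 500 nt upward the median fell with length step by step. It was 1.25 at 500 to 750 nt, 0.72 at 1 to 1.5 kb, 0.11 at 2 to 3 kb, -0.15 at 3 to 4 kb and -0.32 at 4 to 6 kb. In the shortest class, 29 genes of 300 to 500 nt, it was 1.22. Length here is that of the longest annotated transcript.

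**Figure D3:**
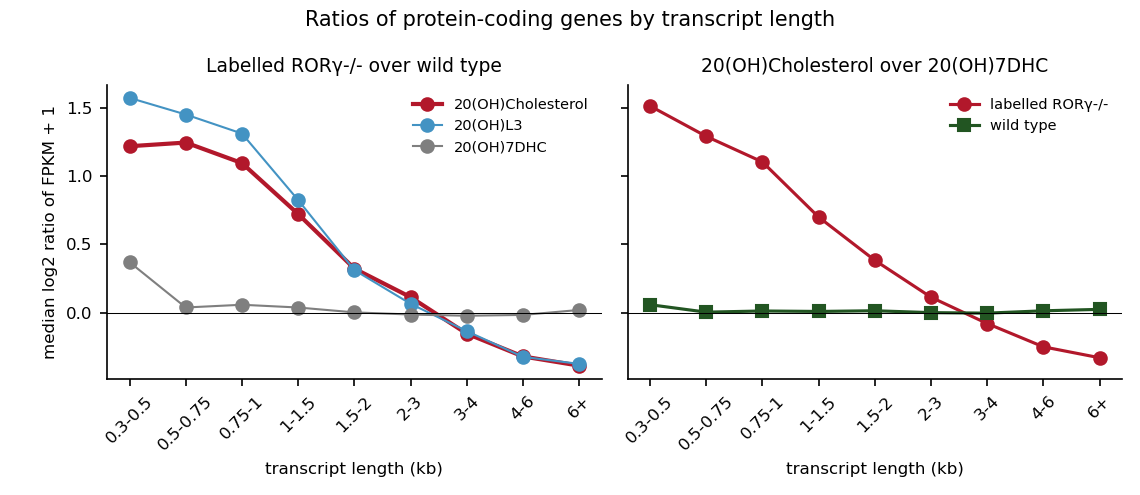
Median ratio of coding genes in 9 classes of transcript length, for the library labelled RORγ-/- over wild type with each sterol (left) and for 20(OH)Cholesterol over 20(OH)7DHC within each genotype (right). The slope appears with 20(OH)Cholesterol and 20(OH)L3 and within the libraries labelled RORγ-/-, and the wild-type line stays between 0.00 and 0.06.

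The same trend was present with 20(OH)L3 and nearly absent with 20(OH)7DHC. The median of coding genes under 1 kb was 1.16 with 20(OH)Cholesterol, 1.35 with 20(OH)L3 and 0.06 with 20(OH)7DHC. Within the knockout-labelled libraries, 20(OH)Cholesterol over 20(OH)7DHC gave 1.15 for the same genes, and within wild type it gave 0.01. With 20(OH)Cholesterol the median under 1 kb was 0.84 after quantile scaling and 0 with no minimum on FPKM. The raised short transcripts thus sat in the knockout-labelled libraries of 2 sterols, and their relation to RNA quality or library preparation was not tested.

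Small housekeeping proteins made up part of these genes but not most of them. Of 70 genes under 1 kb in 6 lists (ribosomal proteins of cytosol and mitochondria, respiratory chain, proteasome, spliceosome and histones) 52 were higher past 2-fold, 74.3%, with a median of 1.49. Of 384 genes under 1 kb outside these lists 204 were higher, 53.1%, with a median of 1.08. Of 72 genes in the same lists with transcripts of 1 kb or more 39 were higher, 54.2%, with a median of 1.10. In these counts a higher ratio went with shorter length within the lists, and with list membership under 1 kb. Length was not matched within these classes, so list membership and length cannot be told apart here.

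By role, 25 of 34 cytosolic ribosomal proteins were higher past 2-fold, 11 of 18 mitochondrial ribosomal proteins, 35 of 47 respiratory chain subunits and 12 of 23 proteasome subunits, and none in these 4 lists was lower. Their medians were 1.38, 1.24, 1.49 and 1.03, and with the length trend taken out 0.55, 0.77, 0.61 and 0.52. The medians of the same lists were 1.75, 1.35, 1.52 and 1.17 with 20(OH)L3, and 0.41, 0.17, 0.04 and 0.06 with 20(OH)7DHC. Rpl41, a very small protein of the large subunit, had 2645 FPKM in the knockout-labelled library and 392 FPKM in wild type. Atp5e, the epsilon subunit of ATP synthase, had 2209.7 FPKM in the knockout-labelled library and 319.5 FPKM in wild type. The most abundant short coding gene, S100a6, a calcium-binding protein, had 28382 FPKM in the knockout-labelled library and 7334 FPKM in wild type (ratio 1.95). Tmsb4x, the actin-sequestering thymosin, had 13603 FPKM in the knockout-labelled library and 2759 FPKM in wild type, and Lgals1, galectin 1, had 11952 FPKM in the knockout-labelled library and 2453 FPKM in wild type. Ribosomal protein genes have many processed pseudogenes, so their values are uncertain where reads fit several places.

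Below 300 nt the table is dominated by few fragments. The comparison held 241 rows under 300 nt, among them 51 microRNA and 62 small nucleolar RNA genes, and 138 of its 180 rows listed at 0 in 1 of both libraries were of this length. The highest row at 0 in wild type was Mir7688, with 3843 FPKM in the knockout-labelled library. It had 1640 and 1118 FPKM in the knockout-labelled libraries with 20(OH)L3 and 20(OH)7DHC, and was listed at 0 in wild type with each sterol. Mir7057 had 1404 FPKM and Mir3074-2 154 FPKM in the knockout-labelled library, and both were listed at 0 in wild type. The fragments behind Mir7688 and Mir7057 could not be judged from shared values. For Mir3074-2, 154 FPKM equalled 1 fragment, judged from the lowest value that rows of this length share, and likewise Mir145a with 381 FPKM was 1 fragment. In the other direction Mir6905 with 226 FPKM in wild type was 1 fragment, Mir6955 with 329.7 FPKM was 2 fragments, and Snord104 with 677 FPKM was 3 fragments, all listed at 0 in the knockout-labelled library. The RefSeq hairpins of both microRNA genes (GRCm38.p6; Mir7057 at chr7:66381667-66381724, - strand; Mir3074-2 at chr8:84208825-84208907, - strand) are printed whole to show how short these rows are.
Mir7057: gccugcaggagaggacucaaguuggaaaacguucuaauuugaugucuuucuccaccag
Mir3074-2: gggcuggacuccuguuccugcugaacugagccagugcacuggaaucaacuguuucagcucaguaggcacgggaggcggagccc

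The summed FPKM of the rows under 300 nt in the comparison was 77584 in the knockout-labelled library and 80278 in wild type with 20(OH)Cholesterol, 99884 against 69346 with 20(OH)L3 and 47938 against 73684 with 20(OH)7DHC. With so few fragments behind single rows, no direction is read from these sums. Coding genes of at least 300 nt summed to 756200 FPKM against 499300 FPKM, and the whole table to 1597800 FPKM against 893460 FPKM.

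The genotype ratios with 20(OH)Cholesterol were next set against those with the other sterols, which rest on libraries of their own. Over the 7967 coding genes the ratio with 20(OH)Cholesterol had a Pearson correlation of 0.87 with that of 20(OH)L3 and of 0.72 with that of 20(OH)7DHC. The Spearman rank correlations were 0.85 and 0.55. These are over genes that share library, length and depth effects. Of the 1198 coding genes higher past 2-fold, 128 were also higher with both other sterols, 778 with 20(OH)L3 but not 20(OH)7DHC, 19 with 20(OH)7DHC but not 20(OH)L3, and 273 with neither. Of the 1145 lower genes, 520 were lower with both, 296 with 20(OH)L3 but not 20(OH)7DHC, 65 with 20(OH)7DHC but not 20(OH)L3, and 264 with neither. The largest of these groups was, for the higher genes, that shared with 20(OH)L3 but not 20(OH)7DHC, and for the lower genes that shared with both. With 20(OH)L3, 32.8% of 7889 coding genes were past 2-fold either way, and with 20(OH)7DHC 13.4% of 7885, against 29.4% with 20(OH)Cholesterol.

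A gene was taken to stand apart with 20(OH)Cholesterol where its ratio was at least 1 above, or at least 1 below, both other ratios. Of all members 264 stood above, 2.96%, and 173 below, 1.94%, and 60 of the 264 and 61 of the 173 were shorter than 300 nt. Of the coding genes 157 stood above, 1.97%, and 93 below, 1.17%. Counted in the same way on their own rows, 165 coding genes, 2.09%, stood above and 81, 1.03%, below with 20(OH)L3, and 258, 3.27%, and 626, 7.94%, with 20(OH)7DHC. The shares with 20(OH)Cholesterol were close to those with 20(OH)L3 and below those with 20(OH)7DHC, and whether any gene is specific to this sterol was not tested.

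The knockout-labelled libraries set most of these differences. Of the 157 genes above both, the knockout-labelled libraries differed more between sterols than the wild-type libraries in 153, with a median shift of 1.43 in knockout-labelled libraries and -0.11 in wild type. Of the 93 genes below both this held for 79, with medians of -1.11 and 0.40. Within wild type, 0.452% of 7748 coding genes were past 2-fold between 20(OH)Cholesterol and 20(OH)7DHC and 1.14% of 7784 between 20(OH)Cholesterol and 20(OH)L3. Within the knockout-labelled libraries these shares were 20.1% of 7565 and 6.37% of 7296. With 1 library for each, the effect of a sterol and the difference between 2 pools or preparations of knockout-labelled cells cannot be told apart.

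**Figure D4:**
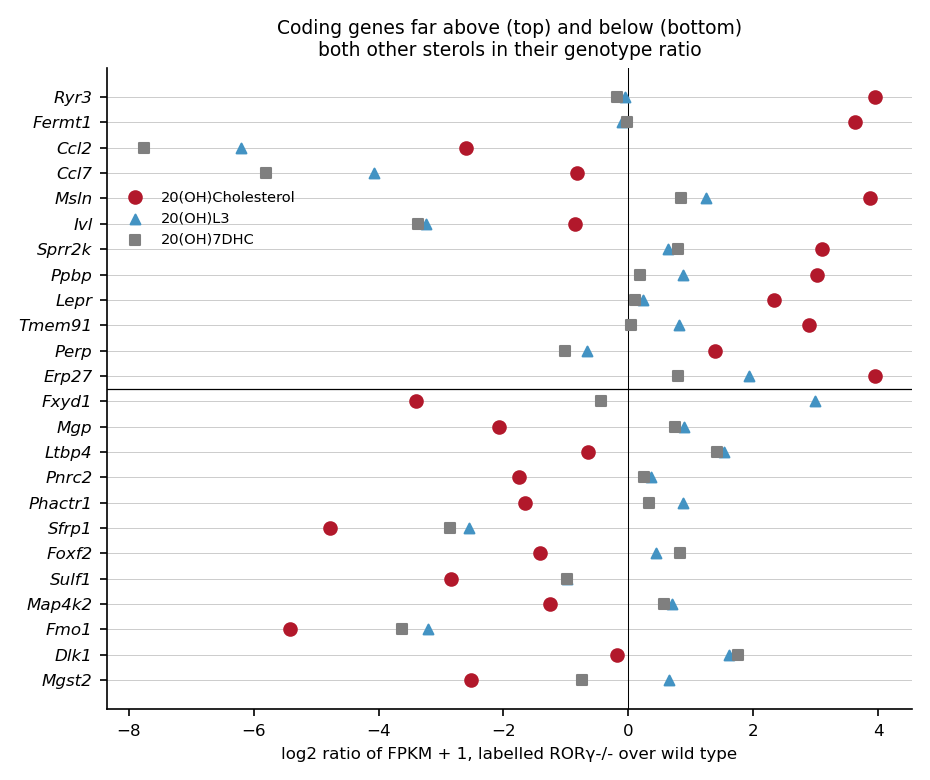
Ratio, log2 of (FPKM + 1) in the library labelled RORγ-/- over wild type, with each of the 3 sterols for 12 coding genes far above (top) and 12 far below (bottom) both other ratios under 20(OH)Cholesterol. Ccl2 and Ccl7 lie left of 0 with every sterol but nearer to 0 with 20(OH)Cholesterol, and Ryr3 and Fermt1 lie near 0 with both other sterols.

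Coding genes furthest apart are described here, since the rule for all rows had picked short RNA genes with few fragments; this choice was made after the values were seen. Ryr3, a calcium release channel of the endoplasmic reticulum, had the largest distance among coding genes above both. With 20(OH)Cholesterol, 20(OH)L3 and 20(OH)7DHC in turn it had 18.5, 0.162 and 0.0492 FPKM in the knockout-labelled libraries and 0.261, 0.207 and 0.190 FPKM in wild type. It was thus high in 1 of 6 libraries, with roughly 2200 fragments there against 52 in wild type. Fermt1, kindlin 1, an integrin activator of epithelial cells, had 12.2, 0 and 0.0476 FPKM in the knockout-labelled libraries and 0.0647, 0.0672 and 0.0642 FPKM in wild type, again high in 1 library. Both lie on chromosome 2, Ryr3 at 112631355 to 113217096 and Fermt1 at 132904389 to 132945906 on GRCm38. Msln, mesothelin, a surface protein of mesothelium, had 20.7, 2.93 and 2.00 FPKM in the knockout-labelled libraries and 0.478, 0.663 and 0.673 FPKM in wild type, with ratios of 3.87, 1.24 and 0.84. Lepr, the leptin receptor, had ratios of 2.34, 0.24 and 0.10, and Ppbp, the platelet chemokine CXCL7, had 3.02, 0.88 and 0.18.

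Some chemokines and feedback genes of NF-κB stood apart in another way: the genes named next were lower with every sterol, and least so with 20(OH)Cholesterol. NF-κB is a transcription factor of inflammation, and its inhibitor IκBα, encoded by Nfkbia, is among its own targets. Ccl2, the main monocyte chemokine, had 657, 53.3 and 17.1 FPKM in the knockout-labelled libraries and 4001, 3986 and 3933 FPKM in wild type, with ratios of -2.60, -6.20 and -7.76. Wild type was thus level across sterols, and the knockout-labelled libraries ran high to low in the order 20(OH)Cholesterol, 20(OH)L3, 20(OH)7DHC. Ccl7, a monocyte chemokine beside Ccl2, followed the same order, with ratios of -0.82, -4.08 and -5.80. Nfkbia had 194, 57.7 and 27.8 FPKM in the knockout-labelled libraries and 308, 349.9 and 274 FPKM in wild type (ratios -0.66, -2.58 and -3.26). Bcl3, a nuclear IκB protein, had ratios of -1.75, -3.65 and -4.60. Cxcl2, a neutrophil chemokine, had -2.28, -3.61 and -4.37. Of the 19 chemokines and cytokines, 13 were lower past 2-fold with 20(OH)Cholesterol and 1, Il11, was higher. Of the 19, 7 stood above both other ratios and 1, Il6, stood below, with -4.01, -2.22 and -2.56. Over coding genes 1.97% stood above and 1.17% below. The 20(OH)Cholesterol ratio was the highest of the 3 sterols for 7 of the 19 and the lowest for 6, so the list was split. Over coding genes these shares were 30.8% and 27.1%. The list's median ratio was -3.16 with 20(OH)Cholesterol, -4.08 with 20(OH)L3 and -4.92 with 20(OH)7DHC. Over its genes with at least 5 FPKM in both 20(OH)Cholesterol libraries, the median with this sterol was -0.99.

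Other genes above both changed sign between the sterols. Cd40, a costimulatory receptor, had 49.1, 16.1 and 6.82 FPKM in the knockout-labelled libraries and 22.7, 27.3 and 33.0 FPKM in wild type (ratios 1.08, -0.72 and -2.12). Ccnd2, cyclin D2, which drives entry into the cell cycle, had ratios of 0.63, -1.26 and -1.67, and Cck, the cholecystokinin precursor, had 0.65, -1.12 and -2.52. Under 20(OH)Cholesterol the ratio of Ccnd2 was -0.05 after quantile scaling, and that of Cck was -0.36 with the length trend taken out. Perp, a desmosomal protein, had ratios of 1.39, -0.66 and -1.01. Ivl, involucrin, a precursor of the cornified envelope, had 4.94, 0.319 and 0.305 FPKM in the knockout-labelled libraries and 9.79, 11.5 and 12.5 FPKM in wild type, so it was lower in all 3 comparisons while Sfn and Lce1h were higher.

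Genes below both other ratios included secreted regulators of growth factors and matrix. Mgp, matrix Gla protein, an inhibitor of calcification, had 1.87, 6.90 and 5.61 FPKM in the knockout-labelled libraries and 11.1, 3.26 and 2.93 FPKM in wild type (ratios -2.07, 0.89 and 0.75). Dcn, described above, had ratios of -7.79, -5.82 and -6.03. Sfrp1, a secreted Wnt antagonist, had 0.586, 2.58 and 2.28 FPKM in the knockout-labelled libraries and 42.5, 19.9 and 22.6 FPKM in wild type, with ratios of -4.78, -2.55 and -2.85. Igfbp3 and Igfbp4, which bind insulin-like growth factors, had ratios of -2.79, -1.05 and -1.07 and of -1.84, -0.17 and 0.06. Sulf1, a sulfatase that edits heparan sulfate, had -2.84, -0.97 and -0.99. Each of these 6 genes, picked after their values were seen, was lower in the knockout-labelled library and higher in wild type with 20(OH)Cholesterol than with the other sterols. Other genes below both did not share the wild-type part. Plac8 had 537 FPKM in wild type with 20(OH)Cholesterol and 540 FPKM with 20(OH)L3, and Smoc2 had 11.9 FPKM with 20(OH)Cholesterol and 12.8 FPKM with 20(OH)7DHC.

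Other genes below both were past 2-fold with both other sterols and within 2-fold with 20(OH)Cholesterol. Dlk1, a membrane inhibitor of adipogenesis, had 15.6, 45.5 and 58.7 FPKM in the knockout-labelled libraries and 17.7, 14.2 and 16.8 FPKM in wild type, with ratios of -0.18, 1.62 and 1.75. Ltbp4, which binds latent TGF-β, had ratios of -0.65, 1.53 and 1.42. With the length trend taken out the ratio of Dlk1 with 20(OH)Cholesterol was 0.18. A further pair was lower past 2-fold with 20(OH)Cholesterol and not with the other sterols. Fxyd1, a regulator of the sodium pump, was listed at 0 in the knockout-labelled library with 20(OH)Cholesterol against 9.58 FPKM in wild type, and had 27.9 FPKM against 2.65 FPKM with 20(OH)L3 and 1.19 FPKM against 1.96 FPKM with 20(OH)7DHC. Foxf2, a forkhead factor of mesenchyme, had ratios of -1.41, 0.44 and 0.82. In all, 71 of the 93 genes below both were lower past 2-fold with 20(OH)Cholesterol, 3 were higher and 19 were within 2-fold. Of the 157 above both, 78 were higher, 19 were lower and 60 were within 2-fold.

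Cholesterol synthesis genes were looked at because the added sterol is itself a derivative of cholesterol. In this pathway SREBP-2, encoded by Srebf2, drives the enzymes of cholesterol synthesis, and the LDL receptor. Of 16 such genes 4 were higher past 2-fold with 20(OH)Cholesterol and none was lower, where 15% of coding genes were higher and 14.4% lower. The median ratio of the 16 was 0.41, against -0.27 with 20(OH)L3 and -0.06 with 20(OH)7DHC. For 15 of the 16 the ratio was highest with 20(OH)Cholesterol, a pattern seen in 30.8% of the 7967 coding genes and singled out after the values were seen. The exception was Lss, lanosterol synthase, with ratios of 0.20, 0.87 and -0.06.

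**Figure D5:**
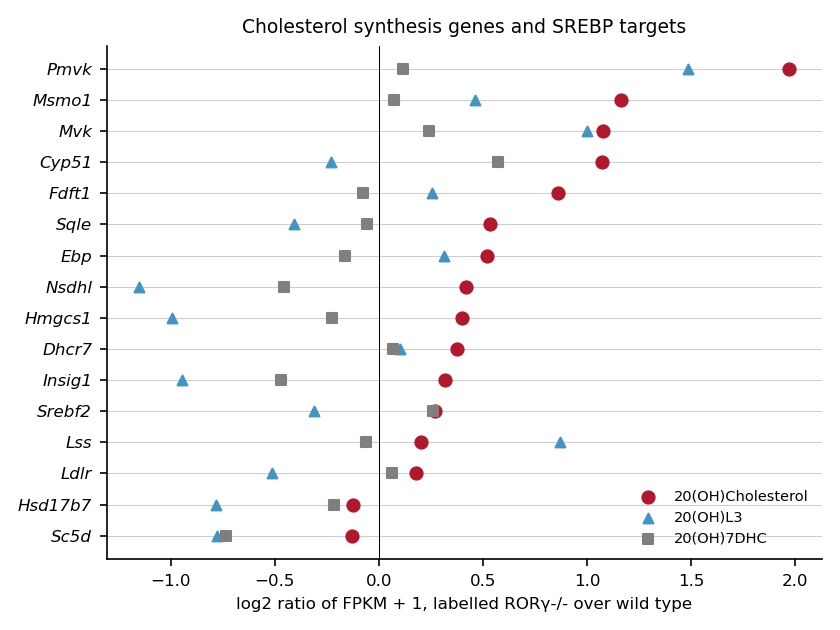
Ratio, log2 of (FPKM + 1) in the library labelled RORγ-/- over wild type, for 16 cholesterol synthesis genes and SREBP targets with each sterol. The 20(OH)Cholesterol points lie furthest right for 15 of the 16 genes.

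Mvk, mevalonate kinase, had 63.1, 61.8 and 28.7 FPKM in the knockout-labelled libraries and 29.4, 30.5 and 24.2 FPKM in wild type (ratios 1.08, 1.00 and 0.24). Msmo1, a C4-methyl oxidase, had 99.0, 58.2 and 53.5 FPKM in the knockout-labelled libraries and 43.7, 42.1 and 50.8 FPKM in wild type (ratios 1.16, 0.46 and 0.07). Cyp51, the lanosterol demethylase, had 38.1, 17.4 and 26.9 FPKM in the knockout-labelled libraries and 17.7, 20.6 and 17.7 FPKM in wild type (ratios 1.07, -0.23 and 0.57). In each of these 3 genes the highest of the 6 values was that of the knockout-labelled library with 20(OH)Cholesterol. Pmvk, phosphomevalonate kinase, was past 2-fold as well, with ratios of 1.97, 1.48 and 0.12. The differences were small, at or under 1 on the log2 scale for 12 of the 16 genes.

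The list of liver X receptors, their targets and oxysterol enzymes had a median ratio of -0.30. Of its 11 genes 3 were lower past 2-fold and none higher, where 14.4% of coding genes were lower and 15% higher. Abcg1, a cholesterol exporter and liver X receptor target, had 7.78 FPKM in the knockout-labelled library and 7.87 FPKM in wild type, with ratios of -0.02, -1.70 and -1.41, and was the gene of the list that stood above both other ratios. Ch25h, which makes 25-hydroxycholesterol and is induced by interferon, had 5.39 FPKM in the knockout-labelled library and 231 FPKM in wild type, and Cyp7b1, an oxysterol hydroxylase, had 0.197 FPKM in the knockout-labelled library and 13.1 FPKM in wild type. Of 5 Hedgehog genes 2, Smo and Gas1, were lower, a list too small to set against the 14.4% of coding genes. Smo, the Smoothened receptor, had 8.55 FPKM in the knockout-labelled library and 20.0 FPKM in wild type (ratio -1.14). Gas1, a coreceptor, had 0.0466 FPKM in the knockout-labelled library and 10.2 FPKM in wild type. Gas1 stood below both other ratios, with -3.42, -2.27 and -2.24.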

How the data were processed

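The deposited values are FPKM per gene for all 6 libraries, per the file header. The submitters' processing notes list Cufflinks 2.2.1 and Cuffdiff, STAR 2.5.4b as a tool, and GRCm38 as the build. Which annotation and strand setting were used, and how multiply mapped reads were treated, is not given in the sources used here, so a gene and an antisense partner cannot be told apart and multigene families are uncertain. RNA was extracted after 24 h, with at least 200 ng a library, per the labels' protocols. The genotype of each library is the labelled one, which the values were not used to establish; a planned check of it went against the labels with all 3 sterols, at low FPKM, and its values are not reported here.

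Of 46958 rows, 1061 that merge several symbols and 173 with a repeated symbol were left out, and rows with at least 5 FPKM in either 20(OH)Cholesterol library were kept (8919 rows). Ratios are log2 with a pseudocount of 1, which understates differences of low genes. With 1 library a side no test was run, and called means past 2-fold. Genes listed at 0 have no fold. Depth is not stated. It was estimated from low values, of which 92.3% to 96.1% a library were whole multiples of 1 fragment within 0.05, against 10% by chance, at 7700000 to 13200000 fragments. GENCODE M21 (GRCm38) gave lengths and places for 8669 of the 8919 rows, and RefSeq the microRNA hairpins.

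The members, the comparison and the 41 gene lists were chosen with earlier results of these data known. Named were the 12 highest and 12 lowest coding genes above 0 in both libraries, the 5 highest rows at 0 in 1 library each way, the 10 rows furthest above and below both other ratios, the 8 most abundant coding genes under 1 kb, rows opposite in sign and up to 4 members a list with the largest ratio. Not every row that these rules took is described in the text. Coding genes furthest apart and other list members were chosen after their values were seen. Alternatives were other pseudocounts, minimums, scalings and thresholds and ratios with the trend on transcript length taken out. Some genes that these rules or lists hold are not reported here, and counts and medians of lists are without them. The steps were tested on simulated data. Python 3.11.15, numpy 2.4.6, pandas 2.3.3 and matplotlib 3.10.9 were used.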

Additional observations from a re-analysis of the deposited data

Results flagged for a closer look

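The genes below had a ratio past 2-fold with 20(OH)Cholesterol and a ratio of the opposite sign, by at least 0.5, with both other sterols. These differences were not tested, since each rests on 1 library a group. In the knockout-labelled library relative to wild type, Mgp had a ratio of -2.07 with 20(OH)Cholesterol against 0.89 and 0.75 with 20(OH)L3 and 20(OH)7DHC. Map4k2, a kinase of the germinal centre family, had -1.26 against 0.70 and 0.58. Slc16a11, a monocarboxylate transporter, had -1.08 against 1.75 and 0.61. Cd40 had 1.08 against -0.72 and -2.12, and Perp had 1.39 against -0.66 and -1.01. Rragd, a small GTPase that recruits mTORC1 to lysosomes, had 1.21 against -0.59 and -0.51. They are 6 of the 7967 coding genes.

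Rows that merge several symbols stayed out of the comparison. Of 640 such rows with at least 5 FPKM in either 20(OH)Cholesterol library, 135 were higher past 2-fold in the knockout-labelled library and 90 were lower. Together merged rows summed to 710220 FPKM in the knockout-labelled library and 275680 FPKM in wild type.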

How the results depend on the processing

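No paired analysis was possible because each group has 1 library and the labels carry no replicate numbers, and no library could be left out. The main values were 1488 rows higher and 1362 lower past 2-fold in the knockout-labelled library, a median ratio of 1.16 under 1 kb and -0.39 from 6 kb, and 264 rows above and 173 below both other ratios. A pseudocount of 5 gave 827 lower, 135 above and 102 below. A minimum of 1 FPKM gave 464 above and 312 below. No minimum gave a median of 0 under 1 kb, 479 above and 361 below. Quantile scaling gave 0.84 under 1 kb, and 1242 higher against 1244 lower. Removal of each library's length trend gave 0.16 under 1 kb and 0.0101 from 6 kb, by its construction, and 1059 higher against 1259 lower. Coding genes of at least 300 nt gave 157 above and 93 below. A minimum of 5 FPKM in both libraries, chosen after seeing the data, gave 1146 higher, 571 lower, 124 above and 49 below, since genes near 0 on 1 side drop out. A 4-fold threshold gave 315 higher and 484 lower. Against 20(OH)L3 alone 526 rows stood above and 443 below, against 20(OH)7DHC alone 1298 and 698, and with a difference of 2 in place of 1, 68 and 61. Where no cause is given, the cause was not tested.

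Of 74 named genes, of which 64 and 29 entered with a minimum of 10 FPKM in either and of 5 FPKM in both libraries, none past 2-fold changed sign. Of those within 2-fold 5 did: Ccnd2 had -0.05 with quantile scaling, and with the length trend removed Pfn1 had -0.14, Cck -0.36, Acp5 -0.40 and Dlk1 0.18. Another 5 were no longer past 2-fold without the length trend, 2 with quantile scaling and 6 with a pseudocount of 5. Of the 157 coding genes above both, 117 were among the 141 found without the length trend, and of the 93 below both, 80 were among 103. The median of the mural cell list reversed with no minimum, to -0.0182 against 1.08. The median of the antioxidant list was -0.05 with quantile scaling and -0.03 without the length trend, against 0.25, and that of the heat shock list -0.16 with quantile scaling, against 0.16. Of 34 lists, medians no longer past 2-fold numbered 5 with no minimum, 7 without the length trend, 6 with quantile scaling and 7 with a pseudocount of 5. With no minimum these were clock genes at -0.75, adipogenic genes at 0.86, histones at 0.16, keratinocyte genes at 0.03 and cornified envelope genes at 0.19. Quantile scaling gave 0.86 for cytosolic ribosomal proteins, 0.88 for the respiratory chain, 0.40 for the proteasome and 0.68 for contractile proteins. A pseudocount of 5 gave -0.98 for mitosis, -0.98 for replication, -0.97 for collagens and -0.83 for recombination repair. With a minimum of 5 FPKM in both libraries, 3 of 32 lists were no longer past 2-fold. These were chemokines and cytokines at -0.99 against -3.16, interferon signalling at -0.52 against -1.07, and clock genes at -0.75 against -1.06. For the cholesterol synthesis list 15 of 16 ratios stayed highest with 20(OH)Cholesterol under both other pseudocounts, median-of-ratios scaling and length removal, and 14 under quantile scaling. Of the contractile list 13 of 20 were highest with 20(OH)Cholesterol, and 7 under quantile scaling. Depth limits rows under 300 nt most, where 1 fragment can be worth over 100 FPKM.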

Other observations

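Stress and lipid genes not described so far were mixed. Over all coding genes 15% were higher and 14.4% lower past 2-fold in the knockout-labelled library, shares to set beside each count here. Of 15 antioxidant genes 3 were higher and 3 lower past 2-fold in that library. Gpx1, a glutathione peroxidase, had 1531 FPKM in the knockout-labelled library and 250.2 FPKM in wild type. Of 19 hypoxia and glycolysis genes 9 were lower and none higher, and Adm, adrenomedullin, had 10.3 FPKM against 254 FPKM. Of 10 adipogenic genes 4 reached the minimum, and the median ratio over the 10 was 0.86. Lpl, lipoprotein lipase, had 15.4 FPKM against 3.26 FPKM. Fabp4, the fatty acid carrier of adipocytes, stood below both other sterols, with ratios of 1.72, 3.68 and 3.19 for 20(OH)Cholesterol, 20(OH)L3 and 20(OH)7DHC. Of 11 heat shock genes 3 were higher, and Hspb1, a small chaperone, had 359 FPKM against 74.6 FPKM.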
